A study of Mus musculus with 53 samples.

Results

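The paraventricular nucleus (PVN) of the hypothalamus was compared between female mice that had inherited a disrupted copy of Nnat from their father but were not obese and their wild-type littermates. The mice were chosen by their labels: libraries 9, 10 and 11 came from chow-fed heterozygous (Nnat+/-p) females of 23.63, 20.4 and 23.9 g, and libraries 1, 2, 3 and 4 from chow-fed wild-type females of 24.1, 24.1, 24.2 and 24.6 g. These were 7 of the 53 libraries of the series. All were adult C57BL/6 mice, bred from wild-type mothers and heterozygous fathers. The disrupted allele carries a lacZ cassette and lacks the second and the third exon of Nnat. The deletion is inherited, so it was carried by every tissue and at every age, not by the PVN alone. The PVN was cut by laser from frozen brain sections, and total RNA was sequenced. A group of 3 obese females of the same genotype (libraries 6, 8 and 12, weighing 32.7, 33.35 and 31.5 g) entered the same fit and is given beside the main comparison. Wild-type library 5 was left out for its total of 2302 counts and obese library 7 for its total of 812815. The labels give the mice of this pool as female, while the extraction text of the series speaks of male mice. Xist and Y-linked counts in all 7 libraries were those of females.

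Nnat encodes neuronatin, a small protein of the endoplasmic reticulum membrane. The gene is imprinted, meaning that only the copy inherited from the father is transcribed, so that 1 disrupted paternal copy is enough to remove most of the transcript. The PVN holds neurons that make oxytocin, vasopressin, corticotropin-releasing hormone, thyrotropin-releasing hormone and somatostatin, and neurons that carry the melanocortin 4 receptor and restrain feeding. Many of their products are peptides that pass through the endoplasmic reticulum as larger precursors before they are cut and packed into granules. The comparison asks what in the PVN transcriptome accompanied the loss of Nnat in mice that had stayed lean.

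The libraries differed in depth and make-up, and 1 of the 3 non-obese libraries stood apart. Total counts were 23906593, 6219365, 8417480 and 21091294 in the wild-type libraries and 30228973, 6702396 and 14522714 in the non-obese libraries 9, 10 and 11. Non-obese library 10, the lightest mouse, had 39.26% of its counts on mitochondrial genes against 16.51 to 26.83% in the other 6. It also had counts on 12898 genes against 15864 to 19707, and it stood at 0 for 26.7% of the genes tested. Wild-type libraries 2 and 3 shared a feature with it. The summed level of 10 abundant noncoding RNAs, Malat1 and Meg3 among them, was 28454 and 28033 CPM (counts scaled by library size) in libraries 2 and 3 and 31036 CPM in library 10. It was 3537 to 7438 CPM in the other 7 libraries of the fit. A total of 404 genes in library 10, 273 in library 2 and 148 in library 3 were at least 4-fold above each of the other 9 libraries of the fit, against at most 17 in any other library. Their part in the results was not tested, so values are given for all 7 libraries, without library 10 and, where it matters, without libraries 2, 3 and 10. The last choice was made after the data had been seen.

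**Figure D1:**
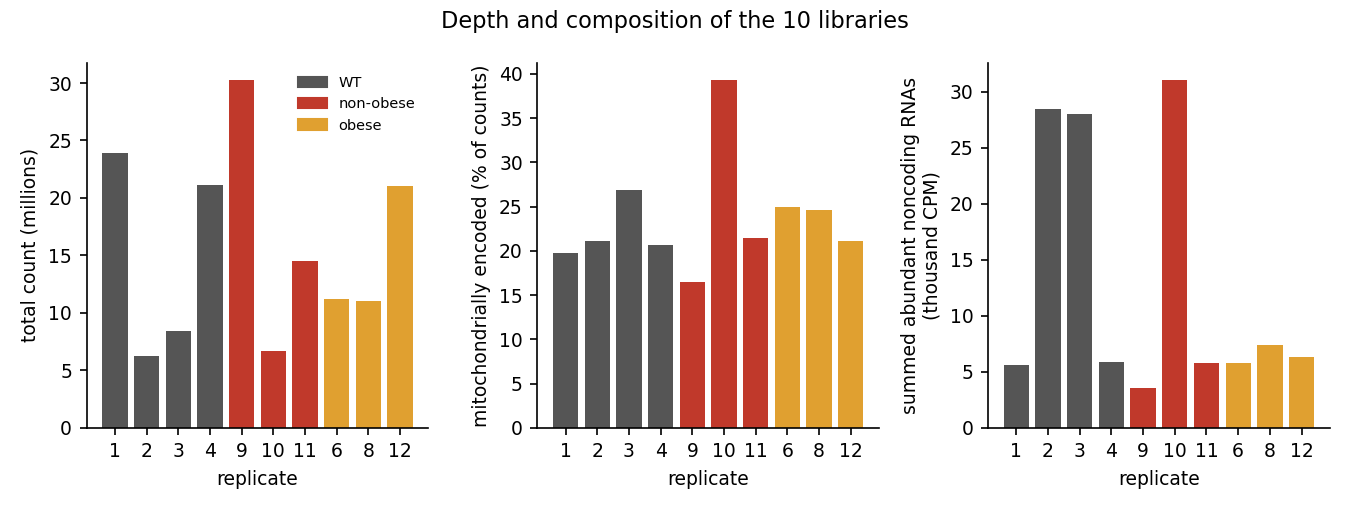
Total count, percent of counts on mitochondrial genes and the summed level of abundant noncoding RNAs in CPM (axis scales as labelled), 1 bar for each library of the fit, coloured by group. Non-obese library 10 has the highest mitochondrial share (39.26%), and libraries 2, 3 and 10 stand apart in the noncoding RNAs (28454, 28033 and 31036 CPM).

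The captured tissue carried the markers of the PVN in all 7 libraries. The 9 PVN markers, among them Oxt, Avp, Sim1 and Otp, summed to 2793 to 3782 CPM in the wild-type libraries and 2238 to 4692 CPM in the non-obese libraries. Markers of other hypothalamic nuclei summed to 8.10 to 34.5 CPM, with Hcrt, Vip and Nms at 0 in all 7. Marker sums of other brain regions were higher. Thalamus markers summed to 119 to 224 CPM in wild type and 53.1 to 211 CPM in the non-obese libraries. Forebrain excitatory neuron markers summed to 220 to 293 CPM against 87.3 to 276 CPM, and library 10 was the lowest for both lists. Midbrain and hindbrain markers, En2 among them, summed to 46.3 to 70.5 CPM against 68.5 to 94.8 CPM. Marker sums of astrocytes (2155 to 2963 CPM), oligodendrocytes (550.2 to 1219 CPM), microglia (125 to 215 CPM) and vessels (389.9 to 539 CPM) overlapped between the groups. With all 7 libraries no member of these 4 lists had an unadjusted p under 0.05. Without library 10, 1 vascular marker was higher at that p. Without libraries 2, 3 and 10, 2 of 10 oligodendrocyte and 2 of 9 vascular markers were higher at that p, against 2.6% of all genes in either direction. Their medians were then 0.35 and 0.28. In tissue RNA, fewer cells of a type and less RNA per cell cannot be told apart.

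Nnat was almost absent from the heterozygous PVN. Its level was 532, 454, 497 and 527 CPM in the wild-type libraries 1 to 4 and 3.15, 17.4 and 2.50 CPM in the non-obese libraries 9, 10 and 11. The obese libraries stood at 1.59, 1.58 and 3.46 CPM. The groups were far apart, with the lowest wild-type library 26.1-fold above the highest heterozygous library, which was library 10. The means were 502 ± 35.9 CPM (SD, n = 4) and 7.68 ± 8.41 CPM (SD, n = 3), so that the non-obese mean was 1.53% of the wild-type mean. Nnat fell by 6.12 on the log2 scale (SE 0.65, edgeR quasi-likelihood adjusted p = 0.00082). Without library 10 it fell by 7.44. An exact permutation test of log2(CPM + 1), two-sided, gave p = 0.0571, which is the smallest value that 3 libraries against 4 can give. With all 6 heterozygous libraries against the 4 wild-type libraries the same exact test gave p = 0.00952.

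The Nnat gene (ENSMUSG00000067786) lies at chr2:157560078-157562522 on the forward strand in GRCm38, within the span of Blcap (chr2:157556362-157571274), which is transcribed from the other strand. The 250 bases before its start site are shown because imprinted transcription of Nnat begins here. RefSeq gives them, on GRCm38.p6 at chr2:157559828-157560077, forward strand, with each CG dinucleotide, the site of DNA methylation, in capitals.
Nnat upstream: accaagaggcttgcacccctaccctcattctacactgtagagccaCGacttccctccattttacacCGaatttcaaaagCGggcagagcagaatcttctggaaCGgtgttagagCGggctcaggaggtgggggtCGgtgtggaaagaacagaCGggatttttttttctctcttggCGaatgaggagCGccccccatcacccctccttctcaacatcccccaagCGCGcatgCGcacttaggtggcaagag
The stretch holds 12 CG dinucleotides. The median over the 32851 upstream windows of the same length in that annotation was 6, and 31.5% of them held more than Nnat.

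Blcap, the neighbour that shares this locus and encodes an apoptosis-related membrane protein, did not pass the test. It stood at 114, 51.6, 96.6 and 116 CPM in wild type and 107, 98.8 and 122 CPM in the non-obese libraries (log2 fold change 0.20, SE 0.31). The groups overlapped. Whether the counting used strand is not given in the sources used here, so reads from Blcap and Nnat may be mixed where their exons meet. Within 5 Mb on either side of Nnat, 104 other genes were tested. Of these, 50 were higher in the non-obese mice, 6 had an unadjusted p under 0.05 and 0 were called, with a median log2 fold change of -0.02. The smallest unadjusted p among them was 0.022, for Id1, an inhibitor of differentiation factors, named here after its value was seen.

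Beyond Nnat, edgeR called no gene at the threshold used, an adjusted p under 0.25. With all libraries 15485 genes were tested and 1 was called (0.00646%). The median log2 fold change over all genes tested was -0.09, and 44.5% of them were higher in the non-obese mice. Without library 10 the median was -0.09 with 45.3% higher, and without libraries 2, 3 and 10 it was 0.0014 with 50.1% higher. The lists below are read against these values, each in its own fit. With all 7 libraries, 620 genes (4%) had an unadjusted p under 0.05. Of these, 303 (1.96%) were higher and 317 (2.05%) lower in the non-obese mice. The groups did not overlap for 637 genes (4.11%), of which 257 (1.66%) were higher and 380 (2.45%) lower. Library 10 moved with most of this list. It was the highest of all 10 libraries of the fit for 258 of the 303 higher genes and the lowest for 278 of the 317 lower genes, 213 of which stood at 0 in it.

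Without library 10, 2 of 17338 genes were called (0.0115%), Nnat and En2. At an unadjusted p under 0.05 there were then 695 genes (4.01%), 185 higher (1.07%) and 510 lower (2.94%). The groups, now 2 libraries against 4, did not overlap for 10.2% of the genes tested, with 5.65% higher and 4.5% lower. The 214 genes below that p in both fits made up 34.5% of the list with library 10 and 30.8% of the list without it, and all 214 kept their direction. Both fits share every library but library 10, so the kept direction is no independent check. Without libraries 2, 3 and 10, 4 of 16489 genes were called (0.0243%), namely Nnat, En2, Vgf and Dsg1a, and 2.6% had an unadjusted p under 0.05. DESeq2's Wald test called 264 of 27820 genes with all 7 libraries (0.949%), 88 higher (0.316%) and 176 lower (0.633%). Library 10 was the highest of the 10 for 73 of those 88, and the groups did not overlap for 148 of the 264.

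En2, which encodes the homeobox factor engrailed 2 of the developing midbrain and hindbrain, was read in every heterozygous library and in no wild-type library. All 4 wild-type libraries had 0 counts. The non-obese libraries 9, 10 and 11 stood at 19.2, 7.37 and 1.49 CPM and the obese libraries at 11.3, 24.7 and 14.0 CPM. Taken over each group, there were 737 counts in the non-obese mice against 0 in wild type. With the wild-type group set at 3 counts, the ratio was 273-fold. This ratio pools counts over libraries and does not take in the spread between them. Library 9 held 676 of the 737 counts, and without it the ratio was 62.4-fold. In edgeR the adjusted p was 0.39 with all 7 libraries, 0.049 without library 10 and 0.001 without libraries 2, 3 and 10. En2 (chr5:28165694-28172166, forward strand) lies on another chromosome than Nnat. As background, splice acceptor sequence of En2 is part of many lacZ targeting cassettes. The makeup of this cassette beyond lacZ is not given in the sources used here, and its part in these counts was not tested. DESeq2 called En2 with all 7 libraries (adjusted p = 1.1e-07). In the male pool described below the wild-type libraries were not all at 0, with 6.19, 0.433 and 0 CPM against 4.97, 17.3 and 8.12 CPM in non-obese heterozygotes.

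**Figure D2:**
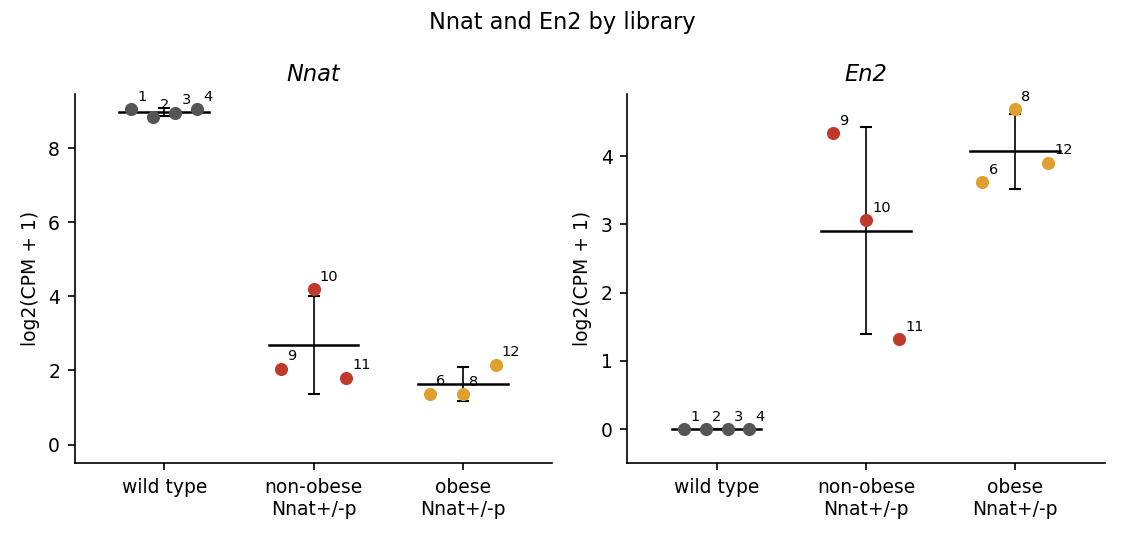
Nnat and En2 as log2(CPM + 1) in each library of the 3 groups (wild type, then non-obese and obese heterozygotes), 1 point a library, with the group mean as a line and SD as bars. Nnat is at 454 CPM or more in every wild-type library and at 17.4 CPM or less in every heterozygous library, while En2 is at 0 in the 4 wild-type libraries.

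The peptide genes of the PVN did not move together, and none was called. Of 16 neuropeptide precursors tested, 5 were higher and 11 lower in the non-obese mice, with a median log2 fold change of -0.38, and 2, Sst and Oxt, had an unadjusted p under 0.05. Without library 10, 8 were higher and 9 lower (median -0.18), and without libraries 2, 3 and 10, 9 of 17 were higher (median 0.01). Somatostatin, encoded by Sst, restrains pituitary growth hormone and thyrotropin. Its level was 114, 151, 296 and 182 CPM in wild type and 91.1, 58.4 and 101 CPM in the non-obese mice (log2 fold change -1.15, SE 0.34, unadjusted p = 0.0038, adjusted p = 1.00). All 3 non-obese libraries lay below all 4 wild-type libraries. Without library 10 the log2 fold change was -0.92, and without libraries 2, 3 and 10 it was -0.63 (SE 0.25). The obese libraries, at 111, 74.5 and 79.2 CPM, lay below the lowest wild-type library as well.

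The upstream sequence of Sst is shown because it holds the cyclic AMP response element, the letters TGACGTCA, through which CREB is known to drive this gene. It is the RefSeq stretch of 250 bases before the start site on GRCm38.p6, chr16:23890845-23891094, reverse strand, with the element in capitals.
Sst upstream: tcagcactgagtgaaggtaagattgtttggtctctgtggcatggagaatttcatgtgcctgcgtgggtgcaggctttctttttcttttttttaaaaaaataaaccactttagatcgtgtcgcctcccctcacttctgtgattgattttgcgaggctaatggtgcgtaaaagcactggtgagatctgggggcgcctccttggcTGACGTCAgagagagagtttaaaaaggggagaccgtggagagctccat
The element ends 41 bases before the start site. It reads the same on both strands and was found in 508 of the 32851 windows (1.55%). The match describes the sequence and is no measure of binding in these mice.

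Oxt, the oxytocin precursor, stood at 1142, 1190.2, 1273 and 1586 CPM in wild type and 895, 419.6 and 1117 CPM in the non-obese libraries. The groups did not overlap, but library 10 was the lowest by a wide margin, and the log2 fold change of -0.68 (SE 0.30, unadjusted p = 0.039) became -0.35 (unadjusted p = 0.19) without it. Avp, the vasopressin precursor, stood at 1333, 575, 629 and 717 CPM against 2359.8, 857 and 676 CPM, with the highest value in library 9. Its log2 fold change was 0.67 (SE 0.39), and without library 9 it was -0.09. Crh, which drives the pituitary stress axis, stood at 145, 70.0, 113 and 152 CPM against 199, 229 and 111 CPM (0.58, SE 0.31). That value was 0.07 without libraries 2, 3 and 10. Trh, which drives the thyroid axis, stood at 358, 212, 283 and 351 CPM against 435, 129 and 276 CPM, with overlapping groups and a log2 fold change of -0.10 (SE 0.33).

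The factors that build the PVN were present in both groups. Sim1, a transcription factor required for PVN neurons to form, stood at 200.0, 109, 106 and 191 CPM in wild type and 202, 249 and 233 CPM in the non-obese mice. The groups did not overlap, though the lowest non-obese and the highest wild-type value were almost equal, and libraries 2 and 3 were the lowest. The log2 fold change was 0.59 (SE 0.28, unadjusted p = 0.05) with all 7 and 0.15 (SE 0.19, unadjusted p = 0.43) without libraries 2, 3 and 10. Otp, its partner factor, overlapped at 167 to 326 CPM against 135 to 292 CPM.

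Vgf was higher in the non-obese mice once library 10 was set aside, and its difference depended on the libraries kept. It encodes the precursor of peptides that act on feeding and energy use, is packed into the same granules as the hormones of the PVN, and belongs to a list of 12 granins and prohormone-cutting enzymes. The gene (ENSMUSG00000037428) lies at chr5:137026392-137033351 on the forward strand in GRCm38. Wild-type levels were 147, 151, 176 and 139.9 CPM, and the non-obese libraries 9, 10 and 11 stood at 416, 67.8 and 272 CPM. Libraries 9 and 11 lay above every wild-type library and library 10 below every one. The obese libraries stood at 578, 381 and 527 CPM, all above wild type. The log2 fold change was 0.72 with all 7 libraries (SE 0.40, unadjusted p = 0.091) and 1.19 without library 10 (SE 0.25, unadjusted p = 0.00012, adjusted p = 0.72). Without libraries 2, 3 and 10 it was 1.27 (SE 0.21, adjusted p = 0.0081). With libraries weighted by quality in limma's voom it was 1.19 (adjusted p = 0.17). Of the settings tried, Vgf was called in the 2 that dropped libraries 2, 3 and 10 or weighted libraries by quality. Without library 9 its log2 fold change was 0.14.

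The granin list as a whole, Vgf included, gave 9 of 12 members higher and 3 lower, with a median of 0.11 and no member at an unadjusted p under 0.05. Without library 10 the median was 0.36, with 10 of 12 higher. In the male pool described below the median of the 12 was -0.06, with male library 15 included, which did not carry the PVN markers. Scg2, which encodes secretogranin II, stood at 1327, 697, 1081 and 1254 CPM against 1706, 955 and 1334 CPM (log2 fold change 0.29, SE 0.27). Pcsk1, the convertase that cuts many prohormones, had a log2 fold change of 0.01. Signal peptidase, calcium handling and stress genes of the endoplasmic reticulum, where neuronatin resides, gave 11 of 22 higher, 11 lower and a median of 0.00. Without library 10, 16 of 23 were higher (median 0.27), and without libraries 2, 3 and 10, 12 of 23 (median 0.04). Spcs1, a subunit of the signal peptidase that trims the leader from secreted proteins, was the only one with an unadjusted p under 0.05. It stood at 31.4, 7.74, 13.0 and 20.1 CPM in wild type and 31.7, 86.7 and 36.3 CPM in the non-obese mice. The lowest non-obese and the highest wild-type value were almost equal, and the log2 fold change of 1.51 (SE 0.54, unadjusted p = 0.014) was 0.92 (unadjusted p = 0.10) without library 10.

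Among genes that follow neuronal activity, Fosl2 was higher in the non-obese mice in each fit, without being called. Of 18 immediate early genes tested, 13 were higher and 5 lower, with a median of 0.31, and Fosl2 alone had an unadjusted p under 0.05. In the male pool described below the median of these 18 was -0.04, with male library 15 included, which did not carry the PVN markers. Fosl2 encodes Fra-2, a partner of Jun in the AP-1 factor. Its level was 47.2, 18.2, 29.1 and 50.8 CPM in wild type and 162, 44.8 and 65.7 CPM in the non-obese libraries, with library 10 inside the wild-type range. The log2 fold change was 1.32 (SE 0.46, unadjusted p = 0.011), and it was 1.66 without library 10 and 1.23 without libraries 2, 3 and 10 (unadjusted p = 0.00079 in both). Without library 9 it was 0.60. The obese libraries stood at 175, 67.5 and 129.7 CPM, all above wild type. Fosb, another AP-1 subunit, was uneven, at 3.05, 0.184, 0 and 4.66 CPM against 45.2, 9.64 and 0 CPM, and library 9 held the high value. Fos itself overlapped, at 0.553 to 33.2 CPM against 8.71 to 94.3 CPM, and its log2 fold change of 1.31 turned to -0.13 without library 10.

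The clock list gave 10 of 16 members higher and 6 lower, and 2 members, Bhlhe40 and Ciart, had an unadjusted p under 0.05. Bhlhe40, a repressor that feeds back on the circadian clock, stood at 50.4, 28.9, 16.5 and 30.5 CPM in wild type and 72.5, 101 and 58.1 CPM in the non-obese mice. Every non-obese library was above every wild-type library, and the obese libraries, at 48.0, 41.5 and 41.3 CPM, lay inside the wild-type range. The log2 fold change was 1.29 (SE 0.40, unadjusted p = 0.0053) with all 7 libraries, 1.06 (unadjusted p = 0.016) without library 10 and 0.69 (unadjusted p = 0.031) without libraries 2, 3 and 10. Ciart, another clock repressor, was at 0.372 to 0.593 CPM in wild type and at 1.28, 16.1 and 0.338 CPM in the non-obese libraries, so that library 10 alone was high. Per2 overlapped, at 10.3, 14.0, 61.4 and 10.4 CPM against 34.1, 0.189 and 11.3 CPM. The time of day at which each mouse was killed is not given in the sources used here.

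**Figure D3:**
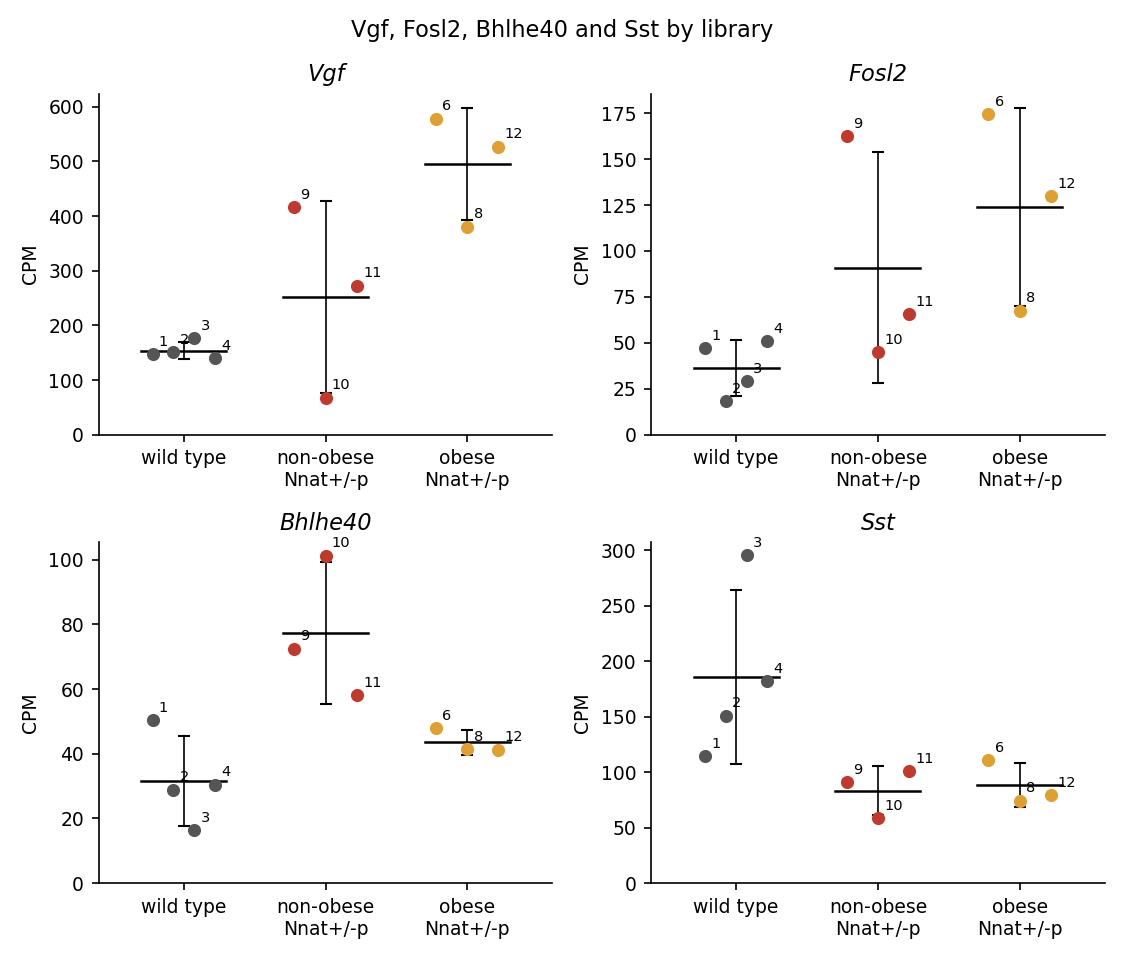
CPM of Vgf, Fosl2, Bhlhe40 and Sst in each library of the 3 groups, 1 point a library, with mean and SD. Bhlhe40 and Sst do not overlap between wild type and non-obese heterozygotes, while library 10 lies below or inside the wild-type range for Vgf (67.8 CPM) and Fosl2 (44.8 CPM).

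More receptors for appetite and stress signals were higher than lower, also without library 10, and no member was called. Of the 24 tested, 17 were higher and 7 lower, with a median of 0.39 against -0.09 over all genes. Without library 10, 19 were higher (median 0.64), and without libraries 2, 3 and 10, 17 were higher (median 0.28). In the male pool described below, the 22 of them that were tested had a median of -0.04. That male fit included wild-type library 15, which did not carry the PVN markers. Only Ntsr1, the neurotensin receptor, had an unadjusted p under 0.05 with all 7 libraries. It stood at 2.51, 0, 0 and 3.47 CPM in wild type and 3.51, 39.1 and 6.96 CPM in the non-obese mice. Library 10 held the high value, and the log2 fold change of 3.42 (SE 1.59, unadjusted p = 0.047) was 1.78 (unadjusted p = 0.38) without it. Npy1r, a receptor of the appetite peptide NPY, was more even, at 15.8, 12.9, 10.5 and 5.39 CPM against 26.2, 33.8 and 19.0 CPM. The groups did not overlap, and its log2 fold change was 1.24 (SE 0.62, unadjusted p = 0.063) with all 7 libraries and 1.05 without library 10.

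The receptors best known for weight control overlapped between the groups. Mc4r, whose loss causes obesity, stood at 14.6, 11.8, 3.96 and 6.57 CPM in wild type and 9.24, 6.80 and 1.22 CPM in the non-obese mice (log2 fold change -0.68, SE 0.99). Glp1r, the receptor of the gut hormone GLP-1, stood at 19.4, 3.68, 8.92 and 25.5 CPM against 38.6, 9.26 and 15.0 CPM (0.54, SE 0.71). Calcr, the calcitonin receptor, was at 50.4 to 86.6 CPM in wild type and at 96.0, 3.78 and 47.9 CPM in the non-obese libraries, with library 10 lowest. Bdnf, which acts downstream of the melanocortin receptor, stood at 10.4, 2.21, 8.55 and 15.7 CPM against 18.4, 1.13 and 28.4 CPM (0.79, SE 0.84). With standard errors of this size, moderate differences in Mc4r, Glp1r and Bdnf were not detectable at this depth and group size.

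Among 35 imprinted genes tested, Nnat was the only one called. Counting Nnat, 21 were higher and 14 lower, with a median of 0.18. Peg10, a paternally expressed gene derived from a retrotransposon, stood at 478, 259, 261 and 356 CPM in wild type and 720.2, 322 and 507 CPM in the non-obese mice. Libraries 9 and 11 lay above all 4 wild-type libraries. The log2 fold change was 0.61 (SE 0.31, unadjusted p = 0.066), and 0.88 (unadjusted p = 0.0069) without library 10. Rtl1, also of retrotransposon origin and paternally expressed, stood at 15.5, 17.9, 12.5 and 14.3 CPM against 40.9, 15.9 and 25.2 CPM. Here too libraries 9 and 11 were above wild type and library 10 was not, with a log2 fold change of 0.86 (unadjusted p = 0.11) and of 1.16 (unadjusted p = 0.023) without library 10. The noncoding imprinted genes followed the libraries instead. Meg3 stood at 591, 4776, 3852 and 929 CPM in wild type and 443, 4490 and 965 CPM in the non-obese mice, high in libraries 2, 3 and 10. Trim28, which encodes a corepressor that guards imprints and whose partial loss also gives variable body weight, stood at 76.2, 103, 106 and 81.6 CPM against 79.8, 58.0 and 78.2 CPM (log2 fold change -0.35, SE 0.30).

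Several of the higher genes with the smallest unadjusted p were highest in library 10 by a wide margin. Hlcs, which encodes the enzyme that attaches biotin to carboxylases, stood at 23.5, 15.1, 14.1 and 15.3 CPM in wild type and 15.1, 1255 and 25.9 CPM in the non-obese mice. Library 10 was 48.4-fold above the highest other library, and the log2 fold change of 4.66 (SE 1.01, unadjusted p = 0.00028) was 0.29 (unadjusted p = 0.63) without it. Lrrc27 stood at 115 CPM in library 10 against at most 21.7 CPM elsewhere, Drd5 at 63.5 CPM against at most 3.17 CPM, and Mrps2 at 99.9 CPM against at most 22.1 CPM. For Drd5 (1.64 and 1.15 CPM) and Mrps2 (22.1 and 16.3 CPM) libraries 9 and 11 also lay above every wild-type library. The highest wild-type values were 0.553 and 12.9 CPM. Pde6b, a phosphodiesterase subunit of photoreceptors, had 0 counts in the 4 wild-type libraries and stood at 1.90, 23.8 and 0.0675 CPM in the non-obese ones, at least 72.0-fold higher over the group and at least 27.9-fold without library 10. The obese libraries stood at 8.55, 6.03 and 10.6 CPM. Tlr9, a receptor for bacterial DNA, also had 0 counts in wild type, and stood at 2.15, 0.567 and 7.16 CPM, at least 68.6-fold higher and at least 40.0-fold without library 11.

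A set of higher genes had all 3 non-obese libraries above all 4 wild-type libraries, with library 10 at most 1.39-fold above every other library. Vps37a, a subunit of the ESCRT-I sorting complex, stood at 38.2, 26.9, 21.6 and 30.6 CPM in wild type and 53.5, 74.4 and 68.3 CPM in the non-obese mice. Its log2 fold change was 1.16 (SE 0.38, unadjusted p = 0.0072) with all 7 libraries and 1.07 without library 10. Cecr2, a chromatin remodelling subunit, stood at 5.14, 2.40, 6.07 and 2.65 CPM against 14.1, 10.8 and 17.8 CPM (1.80, SE 0.85, unadjusted p = 0.05). All 3 libraries of the non-obese group were also apart for Cntnap3 (5.53 to 17.0 CPM against 22.3 to 55.7 CPM), a cell adhesion gene of the neurexin family. Rnf2, a Polycomb ubiquitin ligase, was at 8.22 to 15.7 CPM against 17.9 to 35.9 CPM, and Rffl, another ubiquitin ligase, at 1.86 to 4.24 CPM against 5.27 to 22.1 CPM. These genes were chosen for groups that do not overlap, so their separation is a description. None of them was called by edgeR.

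The lower genes divided in the same way. Cir1, a corepressor of the Notch pathway, stood at 10.1, 20.5, 6.94 and 12.9 CPM in wild type and 1.90, 2.08 and 0.743 CPM in the non-obese mice, with a log2 fold change of -3.00 (SE 1.10, unadjusted p = 0.015). That value was -3.20 without library 10 and -3.09 without libraries 2, 3 and 10. Etl4 stood at 26.2, 34.1, 41.4 and 28.7 CPM against 11.7, 13.6 and 16.3 CPM (-1.23, SE 0.54), and at 11.2, 15.6 and 14.1 CPM in the obese mice. Pard3, a polarity scaffold, stood at 44.6, 85.3, 49.9 and 50.2 CPM against 24.8, 11.9 and 30.3 CPM (-1.36, SE 0.44), and its log2 fold change was -0.78 without libraries 2, 3 and 10. For Cir1, Etl4 and Pard3 every wild-type library was above every non-obese library. Other genes were highest in wild-type libraries 2 and 3. Col16a1, a collagen gene, stood at 5.33, 98.6, 57.8 and 7.44 CPM against 3.06, 1.13 and 3.71 CPM, and its log2 fold change of -3.97 (SE 1.00, unadjusted p = 0.0011) became -0.91 (unadjusted p = 0.31) without libraries 2, 3 and 10. Tmem120b (22.1 and 61.2 CPM), Tatdn3 (59.1 and 18.3 CPM) and Rbm3 (19.5 and 23.3 CPM) were likewise highest in libraries 2 and 3, and their log2 fold changes of -5.72, -4.04 and -3.24 were -2.79, -1.89 and -1.74 without libraries 2, 3 and 10. Gkn3 was also highest in them, at 3.92, 14.4, 10.5 and 1.00 CPM in wild type against 0.0567, 0 and 0 CPM. Eml6, Hnmt and Gga2 were lower in all 3 non-obese libraries, with log2 fold changes of -1.22, -1.99 and -1.64 that were -0.59, -1.02 and -1.01 without libraries 2, 3 and 10.

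**Figure D4:**
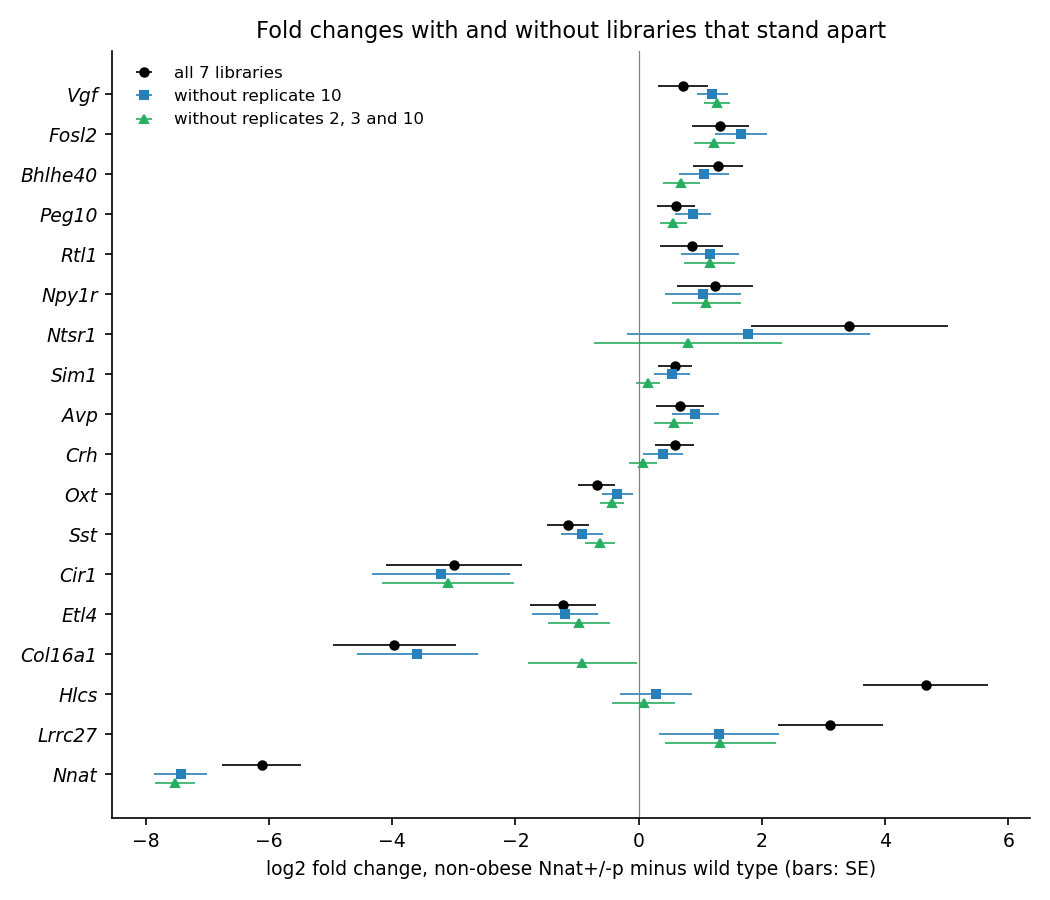
Log2 fold change, non-obese Nnat+/-p minus wild type, for 18 genes, as points with SE bars, from all 7 libraries, without library (replicate) 10 and without libraries 2, 3 and 10. Cir1 stays between -3.20 and -3.00 in the 3 fits, whereas Vgf goes from 0.72 to 1.19 without library 10, Hlcs from 4.66 to 0.29 without library 10 and Col16a1 from -3.97 to -0.91 without libraries 2, 3 and 10.

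Broad housekeeping groups showed no called member and little net shift. Of 74 cytosolic ribosomal proteins tested, 35 were higher and 39 lower (median -0.04), with Rpl38 alone at an unadjusted p under 0.05. Of 70 nuclear-encoded respiratory chain subunits, 29 were higher and 41 lower (median -0.04). Ndufa1 stood at 27.1, 7.00, 13.7 and 25.5 CPM against 21.8, 104 and 36.2 CPM, with library 10 highest, and Ndufa7 at 22.9, 61.7, 36.5 and 25.4 CPM against 15.9, 3.78 and 14.6 CPM, with library 10 lowest. The mitochondrially encoded genes, 8 of 9 higher with a median of 0.30, had 6 of 9 higher and a median of 0.10 without library 10. Of 17 cholesterol and fatty acid synthesis genes, 7 were higher and 10 lower (median -0.01), and of 13 genes of the glucocorticoid response, 8 were higher and 5 lower (median 0.16). Ucp2, an uncoupling protein, overlapped at 58.3 to 97.5 CPM against 38.4 to 109.5 CPM.

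The counts of several lists moved with the libraries retained. GABA and glutamate receptor subunits divided 16 higher and 16 lower with all 7 libraries (median 0.00), 26 of 32 higher without library 10 (median 0.19) and 15 of 32 higher without libraries 2, 3 and 10 (median -0.02). The noncoding RNAs gave 1 higher and 9 lower of 10 (median -0.49). Without library 10 all 10 were lower, with a median of -1.90 and 8 at an unadjusted p under 0.05. Without libraries 2, 3 and 10 the median was -0.10. Malat1, a nuclear transcript and the most abundant of them, stood at 2301, 14536, 16716 and 3416 CPM in wild type and 1944, 17564 and 3498 CPM in the non-obese mice. Bc1, a dendritic RNA made by RNA polymerase III, was called by voom with quality weights, at 5334, 6697, 7644 and 4995 CPM against 2258, 5304 and 4032 CPM.

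Set beside the obese heterozygotes of the same pool, the non-obese mice differed in no called gene. The contrast of obese minus non-obese called 0 of 15485 genes in edgeR's test (0%), with 474 at an unadjusted p under 0.05 (3.06%), and 0 with 165 at that p without library 10. Both groups had almost no Nnat. Vgf stood in between in the non-obese mice, with means of 154 CPM in wild type, 252 CPM in non-obese and 495 CPM in obese mice, although library 10 lay below wild type. The difference between obese and non-obese mice was 0.97 on the log2 scale (unadjusted p = 0.04), and 0.51 (unadjusted p = 0.081) without library 10. Junb, an AP-1 subunit, stood at 20.7, 34.1 and 72.0 CPM in the obese libraries against 13.1, 0 and 3.71 CPM in the non-obese ones, a log2 difference of 2.88 (unadjusted p = 0.019) and of 2.30 (unadjusted p = 0.0085) without library 10. For Fosl2 the same difference was 0.44 (unadjusted p = 0.38). This contrast shares the non-obese libraries with the main comparison, so the values stand side by side only.

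The same genotype contrast in the male chow-fed PVN gave a second view of the members, from other mice in another sequencing pool. It had 3 wild-type and 3 non-obese Nnat+/-p libraries, in a fit of 10 with the obese males. Wild-type male library 15 did not carry the PVN markers, with Oxt at 0.552 CPM, Avp at 0.184 CPM and Sim1 at 0.552 CPM. Male values include library 15 unless they are given as without it. Of 15618 genes, 2 were called (0.0128%), Nnat and Nrgn, and 2.56% had an unadjusted p under 0.05. Without library 15, 2 of 17871 were called (0.0112%), Nnat and Plekhh2. Nnat stood at 379.8, 467 and 368 CPM in wild-type males and 2.69, 5.06 and 4.67 CPM in non-obese males, where it fell by 6.64 on the log2 scale (SE 0.49). Nrgn, a postsynaptic protein of forebrain neurons, stood at 17.3, 50.6 and 255 CPM against 17.0, 9.69 and 6.49 CPM. The high value was that of library 15, and without it the adjusted p was 1.00.

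Vgf had a like size in both pools. In males it stood at 64.5, 110.1 and 90.2 CPM in wild type and 138, 148 and 185 CPM in non-obese heterozygotes, so the groups did not overlap. The log2 fold change was 0.83 (SE 0.26, unadjusted p = 0.0044, adjusted p = 1.00) and 0.85 without library 15. The female minus male difference in the effect was -0.09 (SE 0.50, unadjusted p = 0.86), an error too large to show that the effects were alike. Fosl2 stood at 41.3, 30.9 and 2.58 CPM against 55.7, 56.0 and 54.0 CPM (1.16, unadjusted p = 0.034), and its value without library 15 was 0.63 (unadjusted p = 0.092). Peg10 had 0.60 in males (unadjusted p = 0.039) and 0.64 without library 15, against 0.61 in females. Glp1r stood at 1.55, 0.216 and 2.21 CPM in wild-type males and 9.11, 6.74 and 10.1 CPM in non-obese males, a log2 fold change of 2.68 (SE 0.68, unadjusted p = 0.00056) that was not called. Without library 15 that log2 fold change was 3.33. Bhlhe40, at 1.29 in females, was at 0.02 (SE 0.30) in males. Vps37a, Cecr2, Cntnap3, Rnf2 and Rffl, higher without overlap in females, were at 0.22, -0.23, -0.45, -0.02 and 0.32 in males. Cir1, Etl4 and Pard3, lower without overlap in females, were at 0.21, -0.11 and -0.65. The SE of these male values ran from 0.32 to 1.43, with library 15 included.

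A test of whether the effect differed between the pools called 0 of 18708 genes in edgeR (0%), with 1073 at an unadjusted p under 0.05 (5.74%). Without female library 10 it called 6 genes (0.0278%), namely Nptx1, Nrgn, Rpph1, En2, Ttn and Col16a1, and without male library 15 it called 0. Nptx1, a secreted synaptic pentraxin, stood at 35.2, 7.37, 16.0 and 26.1 CPM in wild-type females and 116, 34.2 and 27.4 CPM in non-obese females (log2 fold change 1.48, unadjusted p = 0.02). In males its log2 fold change was -1.46, and 0.25 without library 15. Sex and pool cannot be told apart, since each pool held mice of 1 sex.

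**Figure D5:**
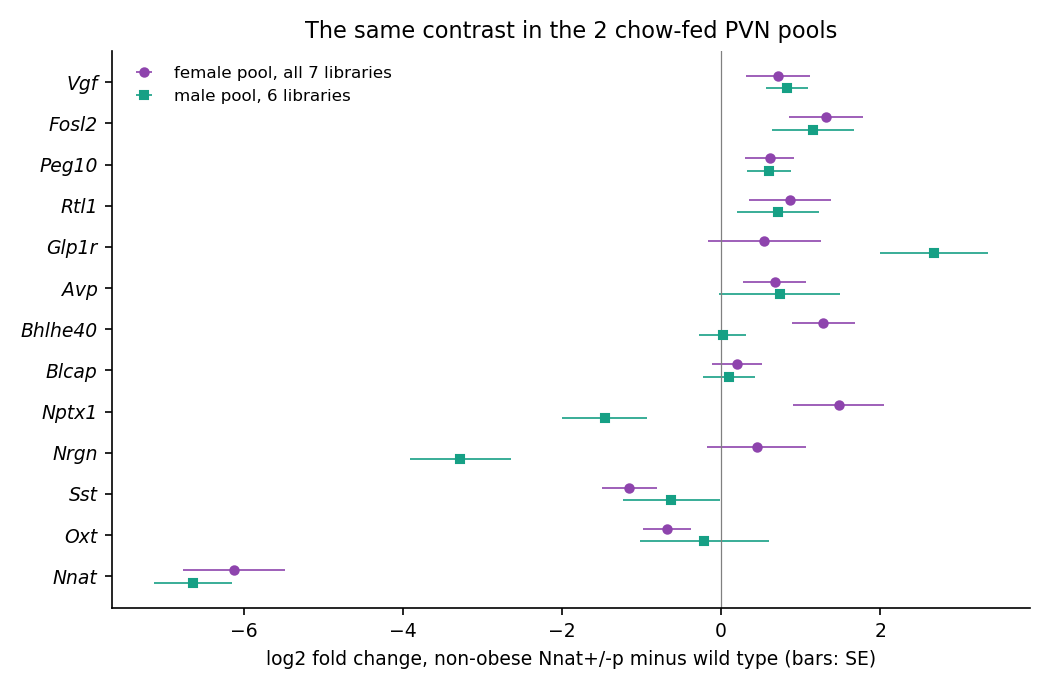
Log2 fold change, non-obese Nnat+/-p minus wild type, with SE bars, for 13 genes in the female pool (7 libraries) and the male pool (6 libraries). Nnat, Vgf, Fosl2, Peg10 and Rtl1 have like values in both, while Glp1r, Nptx1 and Nrgn lie far apart. Male library 15 is among the wild type. Without it the male values of Fosl2, Nptx1 and Nrgn are 0.63, 0.25 and -1.61.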

How the data were processed

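RNA from laser-captured PVN was made into libraries with a stranded total RNA kit for very small inputs and sequenced. The authors deposited raw read counts for 53379 genes, 1 table per sequencing pool. The submitters' processing notes name STAR 2.5.0a and GRCm38; the counting tool and its strand setting are not given in the sources used here. The arcuate nucleus table was not used.

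The fit was edgeR 4.0.16 under R 4.3.3 (quasi-likelihood test, TMM scaling, filterByExpr with a minimum count of 10) over wild type, non-obese and obese libraries without libraries 5 and 7. CPM are scaled by TMM. A gene was called at a Benjamini-Hochberg adjusted p under 0.25. Each p across genes is from edgeR unless DESeq2 1.42.0 or limma 3.58.1 is named. The scripts were tested on simulated data. Members and lists were chosen with earlier results of these data known. Named genes were Nnat, Blcap, Ntsr1, Nrgn, Npy, Tbx3, Ucp2, Glp1r and Vgf, called genes, the 10 with the smallest p in each direction (at least 5 CPM), the 10 of DESeq2 in each direction without overlap, and, in each list, members with an unadjusted p under 0.05 and those with the largest differences. The 10 with the smallest p without library 10, Dsg1a and Bc1 were added after values were seen. The labels give each library a body weight but do not say that each came from a separate mouse, so p-values measure the spread between these libraries, which may be technical. No 2 wild-type libraries agreed within sampling noise.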

Additional observations from a re-analysis of the deposited data

Results flagged for a closer look

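In the 4 wild-type libraries, 1 library lay far from the others for 5 of the 61 genes looked at (by Dixon's ratio of gap to range, which chance passes in about 1 of 20 groups). Per2 stood at 61.4 CPM in library 3 against 14.0 CPM in the next. Pard3 stood at 85.3 CPM in library 2 against 50.2 CPM, Nrgn at 48.3 CPM in library 2 against 14.2 CPM, and Dsg1a at 88.8 CPM in library 2 against 6.32 CPM. Hlcs stood at 23.5 CPM in library 1 against 15.3 CPM. Of these 5 outlying values, 4 came from libraries 2 and 3, which also held the high noncoding RNA levels.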

How the results depend on the processing

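The call of Nnat kept its direction in each of the 16 alternatives and its side of the threshold in all but 1, the fit with libraries 5 and 7, where it fell by 5.74 (adjusted p = 0.38). The number of genes called, 1 in the fit reported, was 264 with DESeq2, 235 with no filter on low counts, 6 with all labelled libraries, 3 with voom quality weights, 4 without libraries 2, 3 and 10, and 1 to 3 when 1 library was left out. DESeq2 called 226 to 1877 genes in turn, the highest without library 9. The difference between pools, with 0 calls, gave 6 without library 10 and 0 without library 15. Of 954 values for 60 named genes, 869 kept direction and call, 50 were called under an alternative and 35 turned direction; 47 genes never turned.

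Without libraries 2, 3 and 10 the log2 fold change turned for Blcap (-0.0092), Trh (0.0095), Fos (-0.10), Per2 (1.15), Calcr (0.26), Trim28 (0.0044), Ucp2 (0.094), Tbx3 (-0.044) and Dsg1a (5.45). With voom weights it turned for Trh (0.069), Per2 (0.91), Calcr (0.18), Ucp2 (0.074) and Dsg1a (4.29), and with all labelled libraries for Trh (0.21), Otp (0.10), Ucp2 (0.22) and Dsg1a (0.18). Dsg1a was at 0.0041 with no filter and 1.62 with replicates 1 and 2 summed. Leaving out 1 library gave -0.085 to 1.01 for Avp, -0.57 to 0.26 for Trh, -0.37 to 0.13 for Otp, -0.13 to 1.89 for Fos and -2.04 to 0.41 for Per2. It gave -0.25 to 0.96 for Glp1r, -1.34 to 0.16 for Calcr, -0.78 to 1.27 for Kcnq1ot1, -0.35 to 0.30 for Ucp2, -0.10 to 0.68 for Tbx3 and -1.99 to 3.20 for Dsg1a. The cause was not tested. No paired analysis was made, because the sample labels used here give no litter or other pairing.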
